A study of Mus musculus with 6 samples.

Results

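The genes described here are 40 heat shock and unfolded protein response genes, taken from a fixed list of symbols and split by role into 16 cytosolic chaperones and co-chaperones, 13 chaperones and quality control proteins of the endoplasmic reticulum (ER), 2 mitochondrial chaperonins, 5 stress sensors and transcription factors and 4 targets of the transcription factor ATF4. Each gene was represented by its brightest probe set that carries exactly 1 gene symbol. Such a probe set was at hand for 38 of the 40, out of 18193 genes in the whole table, and Hsf1 and Hsp90ab1 were not analysed here. Of the 38, 37 lay above the filter on dim probe sets. Trib3 did not, with a mean signal of 22.8 ± 8.7 in KO mice and 25.4 ± 6.5 in WT mice (SD, n = 3 each).

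The samples were striata of 3 PGC-1a null mice (PGC-1a-/-, KO) and 3 wild-type mice (PGC-1a+/+, WT), all female and 6 months old, bred from heterozygous founders, with 1 Affymetrix array per mouse. PGC-1alpha, encoded by Ppargc1a, is a transcriptional coactivator of mitochondrial and oxidative genes, and the labels name no promoter or cell type that would restrict its loss. The label of KO 3 names cytoplasmic RNA where the other 5 name total RNA. The fit of all probe sets was repeated without that mouse. Of the 26 genes followed through it, values that moved by over 1.5 times are given. The design text calls the WT mice littermate controls, but no label ties a KO mouse to a given WT mouse.

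Cells meet misfolded protein with several sets of genes. In the cytosol, heat shock factor 1 induces HSP70, HSP40, HSP90 and small heat shock proteins, which bind unfolded chains and return them to their native state with the help of nucleotide exchange factors and co-chaperones. In the ER, the sensors IRE1, ATF6 and PERK start the unfolded protein response: spliced XBP1 and cleaved ATF6 induce ER chaperones and folding enzymes, while PERK slows translation and favours ATF4, which induces amino acid synthesis genes and the CHOP branch. Mitochondria hold a chaperonin of their own, made of HSP60 and HSP10. Neurons of the striatum do not divide and depend on these systems for protein turnover, and striatal neurons are the cells most affected in Huntington's disease, a disorder of protein aggregation.

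The deposited values are MAS5 signals on a linear scale, already scaled to a common mean. Differences are KO minus WT on log2(signal + 16), with a standard error from limma, and an adjusted p covers all 27022 probe sets tested. Fold values refer to the same scale and understate the change of dim probe sets. In bulk tissue, fewer cells of a type and less RNA per cell cannot be told apart. The arrays were similar in scale, and median signals of the 6 arrays ran from 43.1 to 47.3. Log2 signals correlated at 0.977 to 0.979 between KO mice, but at 0.972 to 0.974 between WT mice. Between a KO and a WT mouse they correlated at 0.972 to 0.976. Ppargc1a itself fell in KO mice by all 5 of its probe sets. The brightest of them read 89.5, 87.9 and 68.4 in KO mice, against 397, 305 and 370.3 in WT mice (difference -1.93, SE 0.14, limma adjusted p = 3e-05). Of 10 medium spiny neuron markers, which define the striatum, 8 were measured and all 8 lay above the filter. Their summed signals were 28074 to 30872 in KO mice and 26060 to 30904 in WT mice, and WT 2 was the highest WT mouse for all 8. Of the 8, 7 read higher in KO (median difference 0.08), where 48.2% of all named genes did. None had an adjusted p under 0.05 in limma.

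No heat shock or unfolded protein response gene passed the threshold, and most chaperone genes nevertheless read slightly higher in KO striatum. In limma, 0 of 37 members had an adjusted p under 0.05, where 0.470% of all probe sets tested did, and the smallest adjusted p among the members was 0.2. At an unadjusted p under 0.05 there were 9 members, all higher in KO, where 4.11% of all probe sets had such a p and were higher in KO and 9.17% had one in either direction. The difference was above 0 for 27 of 37 members (73.0%), against 48.9% of all probe sets and 48.2% of all named genes by their brightest probe set. The median difference over the 37 members was 0.11, against -0.005 over all probe sets. By role, medians were 0.1 for cytosolic chaperones, 0.15 for ER chaperones, 0.02 for mitochondrial chaperonins, 0.13 for sensors and transcription factors and -0.16 for ATF4 targets. The difference between roles was not tested.

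**Figure D1:**
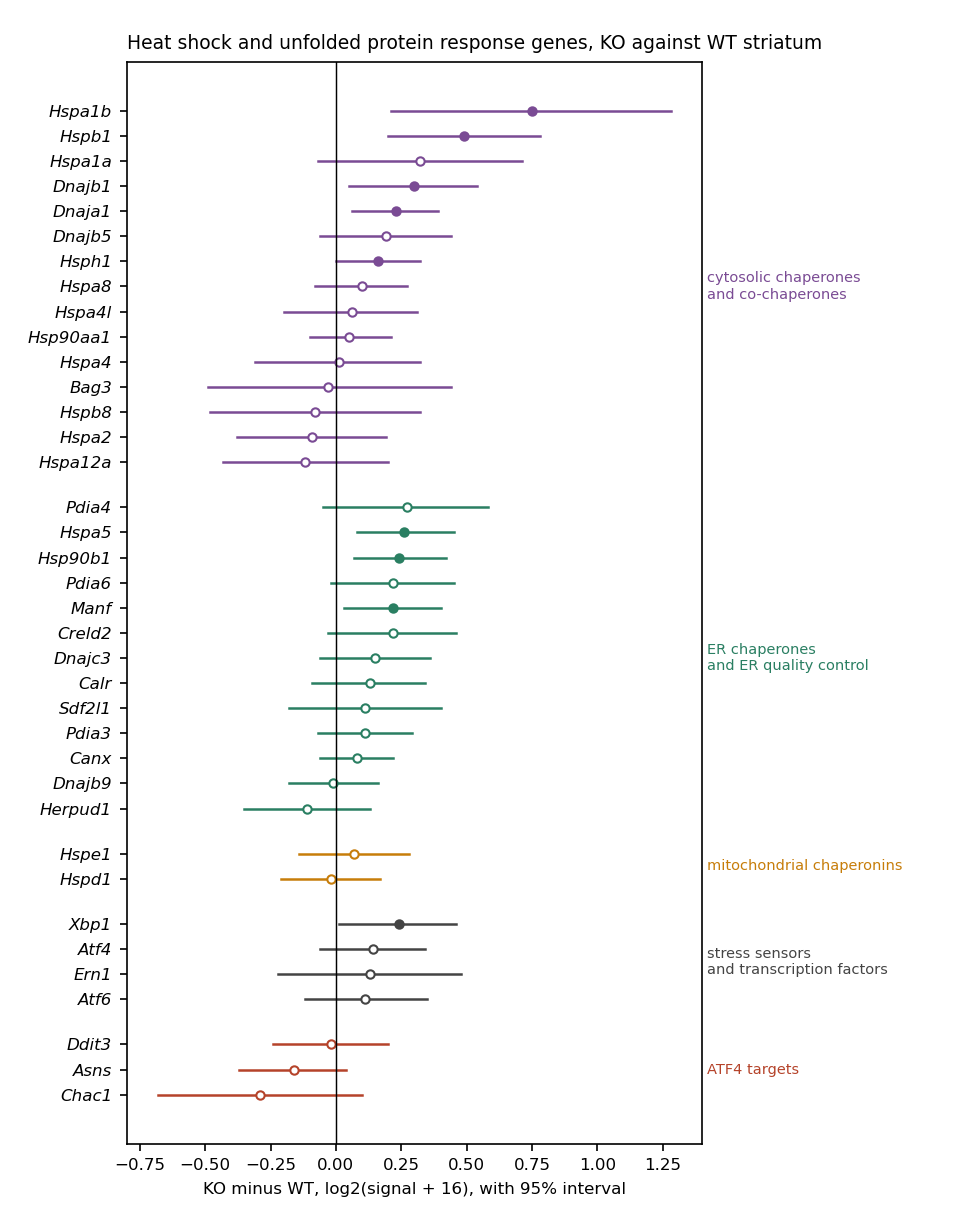
KO minus WT difference on log2(signal + 16) for the 37 tested members, grouped by role, with the 95% interval from limma. Filled points have an unadjusted p under 0.05; all 9 of them lie right of 0, and the 3 ATF4 targets lie left of 0.

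Among the cytosolic chaperones, 11 of 15 read higher in KO, and 5 of these had an unadjusted p under 0.05. Hspb1 encodes the small heat shock protein HSP27, which holds unfolded chains and protects actin filaments. Its signals were 192.3, 239.4 and 197.3 in KO mice, against 160.4, 150.6 and 123.6 in WT mice. Every KO mouse lay above every WT mouse, by 1.4-fold on average (difference 0.49, SE 0.13, limma adjusted p = 0.2). A second Hspb1 probe set differed by 0.38. The other small heat shock protein of the list, Hspb8, which works with BAG3 in selective autophagy, differed by -0.08 by its brightest probe set and by 0.33 and 0.39 by the other 2.

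The stress-inducible HSP70 genes are Hspa1a and Hspa1b. Hspa1b read 132.3, 189.8 and 234.8 in KO mice, against 163.8, 75.3 and 82.8 in WT mice. KO 1 lay below WT 1, so the groups overlapped, although the mean difference was the largest of the list (0.75, SE 0.25, limma adjusted p = 0.33). Its near-identical copy Hspa1a read 66.6, 57.4 and 78.6 in KO mice, against 60.3, 45.5 and 47.0 in WT mice (difference 0.32, SE 0.18, adjusted p = 0.64). WT 1 was the highest WT mouse by both genes, and KO 3 the highest KO mouse. The probe sets may not separate the copies, so the values of Hspa1a and Hspa1b are not independent. Without WT 1 the Hspa1b difference was 1.05 (adjusted p = 0.06), and its adjusted p lay between 0.06 and 0.6 across the settings tried.

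The likeness of the 2 copies extends to their promoters, which is why both are shown. In the RefSeq windows of build GRCm38.p6, 247 of the 250 bases before the start are the same. Below are stretches of 32 bases around a pair of heat shock element units, GAANNTTC or TTCNNGAA, searched on both strands, with the match in capitals, for the HSP70 copies and for Hspb1 and Dnaja1.
Hspa1b, chr17:34959323-34959354, minus strand: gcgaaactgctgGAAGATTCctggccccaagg
Hspa1a, chr17:34972241-34972272, minus strand: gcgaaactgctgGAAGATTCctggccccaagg
Hspb1, chr5:135887790-135887821, plus strand: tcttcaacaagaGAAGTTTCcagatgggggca
Hspb1, chr5:135887810-135887841, plus strand: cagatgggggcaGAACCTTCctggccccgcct
Dnaja1, chr4:40722332-40722363, plus strand: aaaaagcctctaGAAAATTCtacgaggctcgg
This 8-base pattern is common, and 15.1% of the 32851 promoter windows in the table hold it. It was found in 7 of the 13 cytosolic members with a window, whose median difference was 0.23 with 5 of 7 higher in KO, against 0.03 with 4 of 6 higher in those without it. Hspb8 (-0.08), Bag3 (-0.03) and the ATF4 target Asns (-0.16) hold it too. The 7 include both Hspa1a and Hspa1b, whose values are not independent. The split was made after the values were seen and carries no test. Over 1366 other tested genes whose window holds it, the median difference was -0.01.

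HSP40 proteins deliver unfolded chains to HSP70 and start its ATPase. Dnaja1 read 2428.7, 2528.6 and 2322.6 in KO mice, against 2270.5, 1987.0 and 1965.6 in WT mice. The groups did not overlap, although KO 3 and WT 1 lay close (difference 0.23, SE 0.075, limma adjusted p = 0.33). The inducible Dnajb1 read 659.0, 744.5 and 622.7 in KO mice, against 649.8, 517.3 and 481.4 in WT mice, with WT 1 inside the KO range (difference 0.3, SE 0.11, adjusted p = 0.41). Dnajb5 differed by 0.19 (SE 0.11) and was higher by all 3 of its probe sets. Dnaja1, Dnajb1 and Dnajb5, the cytosolic HSP40 members, read higher in KO by every tested probe set, and none passed. Over averaged probe sets, the Dnaja1 difference was 0.14.

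Hsph1 encodes HSP110, which exchanges the nucleotide of HSP70. It read 2676.0, 2703.5 and 2700.9 in KO mice, against 2560.4, 2490.7 and 2188.2 in WT mice, with no overlap (difference 0.16, SE 0.073, limma adjusted p = 0.53; 0.09 without WT 3). A dimmer Hsph1 probe set read 2047.4, 2174.8 and 1977.7 in KO mice, against 1694.4, 1701.0 and 1603.4 in WT mice. By that probe set the groups lay further apart (difference 0.31, adjusted p = 0.099), which was the smallest adjusted p of any probe set of a member. The related exchange factors Hspa4 and Hspa4l differed by 0.01 and 0.06, and Hspa4l gave differences below 0 by its other 4 probe sets.

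The groups overlapped for the remaining cytosolic members. Hspa8, the constitutive HSC70 protein that also uncoats clathrin vesicles, read 9131.3, 9208.4 and 10248.9 in KO mice, against 9391.1, 9407.7 and 7987.7 in WT mice. The groups overlapped (difference 0.1, SE 0.079, limma adjusted p = 0.77), and the 95% interval of the difference ran from -0.08 to 0.27. Its other 3 probe sets gave 0.09, 0.31 and 0.33, so the size depends on the probe set. The Hspa8 difference was 0.21 over averaged probe sets, 0.18 after quantile normalization (adjusted p = 0.19), 0.04 without KO 3 and 0.02 without WT 3. Hsp90aa1, the inducible HSP90, read 6394.0, 7476.2 and 6443.1 in KO mice, against 6237.4, 6622.8 and 6649.9 in WT mice. Its difference was 0.05 (SE 0.074, adjusted p = 0.88, interval -0.1 to 0.21), again with overlap, and 0.09 without KO 3. Hspa2 (-0.09), Hspa12a (-0.12) and the HSP70 co-chaperone Bag3 (-0.03) were on the other side of 0, each with overlapping groups.

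**Figure D2:**
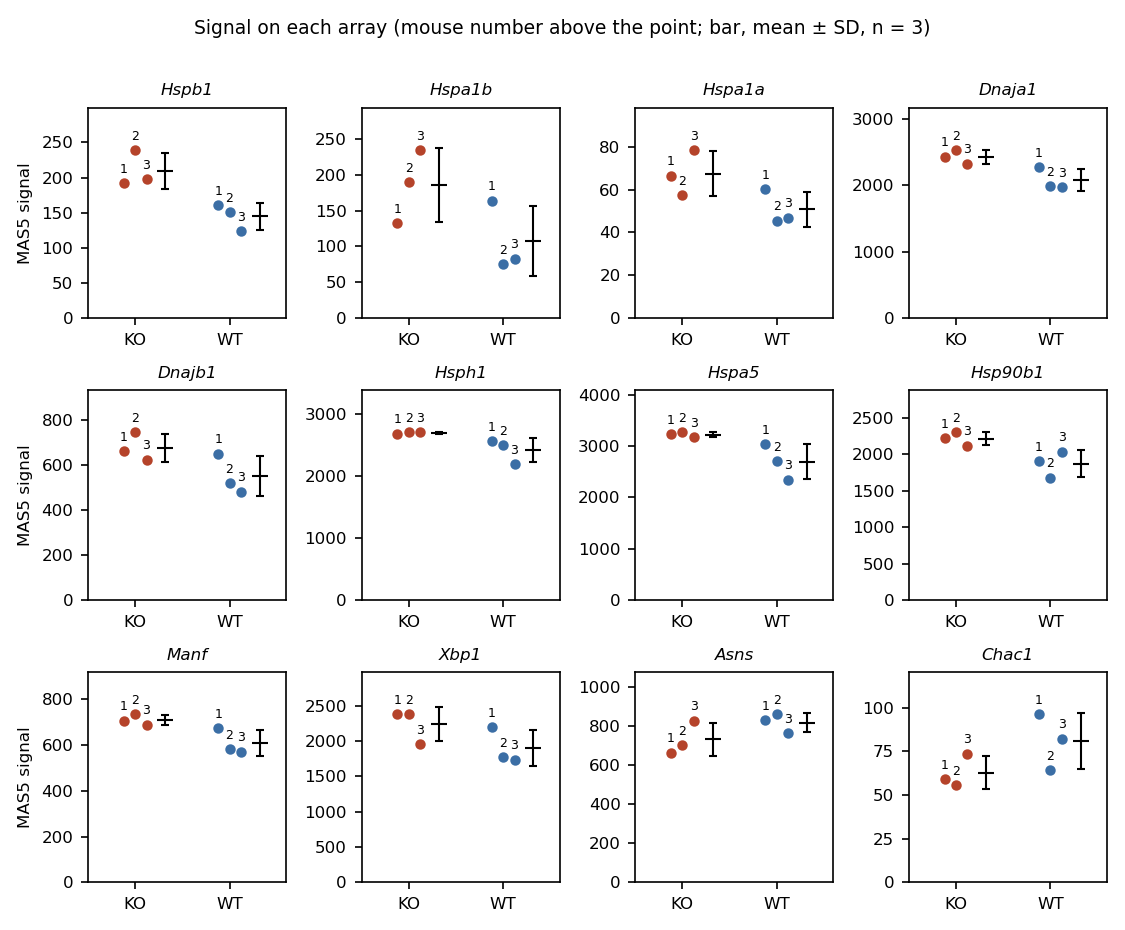
MAS5 signal (linear axis from 0) in each KO and WT mouse for 12 members, with the mouse number above each point and the mean ± SD (n = 3) beside each group. KO and WT mice do not overlap for Hspb1, Dnaja1, Hsph1, Hspa5, Hsp90b1 and Manf, whereas WT 1 lies within the KO range for Hspa1b, Hspa1a, Dnajb1 and Xbp1.

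Of the ER chaperones, 11 of 13 read higher in KO by small amounts, with no overlap between the groups for 6 of them. Across all probe sets, 6.52% were higher in KO without overlap and 14.4% showed no overlap in either direction, and over all members there were 9 of 37 without overlap, all higher in KO. Hspa5 encodes BiP, the HSP70 of the ER that holds the stress sensors inactive. It read 3228.2, 3269.4 and 3169.9 in KO mice, against 3029.3, 2708.7 and 2346.1 in WT mice. The KO mice lay within a narrow band above all WT mice, 1.2-fold higher on average (difference 0.26, SE 0.086, limma adjusted p = 0.32). A second bright probe set gave 0.32 (adjusted p = 0.23) and a dim one -0.05. Without WT 3, the lowest WT mouse, the Hspa5 difference was 0.17.

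Hsp90b1 encodes GRP94, the HSP90 of the ER. Its signals were 2223.8, 2303.7 and 2117.6 in KO mice, against 1908.3, 1678.3 and 2033.6 in WT mice, without overlap (difference 0.24, SE 0.08, limma adjusted p = 0.33). Manf, a secreted protein of the ER lumen that binds BiP and is known for protecting dopamine neurons, read 706.9, 734.9 and 689.9 in KO mice, against 673.5, 583.5 and 572.3 in WT mice. The groups again did not overlap (difference 0.22, SE 0.086, adjusted p = 0.44). The differences of these 3 genes correspond to signals 1.16-fold to 1.2-fold higher in KO.

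The other ER members differed by -0.11 to 0.27, and most of them read higher in KO. Protein disulfide isomerases form and rearrange disulfide bonds: Pdia4 differed by 0.27, Pdia6 by 0.22 and Pdia3 by 0.11, each with overlapping groups. A dimmer Pdia3 probe set gave -0.2. Creld2, another disulfide isomerase induced by ER stress, read 266.1, 260.9 and 259.8 in KO mice, against 226.2, 252.8 and 194.0 in WT mice, without overlap (difference 0.22, limma adjusted p = 0.61). Dnajc3, an HSP40 of the ER lumen and inhibitor of eIF2alpha kinases, differed by 0.15 without overlap. The lectin chaperones of the glycoprotein folding cycle, calnexin (Canx) and calreticulin (Calr), differed by 0.08 and 0.13, Canx without overlap and both higher by all 3 of their probe sets. Sdf2l1, which assists BiP, gave 0.11. Herpud1, a component of ER-associated degradation, gave -0.11, and Dnajb9, the HSP40 that represses IRE1, gave -0.01.

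Promoters of the ER members are shown because 7 of the 12 with a RefSeq window hold the ER stress element, the recognised target of ATF6 together with the factor NF-Y. The element was searched as CCAAT and CCACG with any 9 bases between them, on both strands of the window, and 0.119% of the 32851 windows hold it. Each line gives the strand on which the element reads forward, with its outer letters in capitals.
Hspa5, chr2:34772019-34772049, plus strand: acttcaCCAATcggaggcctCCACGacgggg
Hsp90b1, chr10:86705527-86705557, plus strand: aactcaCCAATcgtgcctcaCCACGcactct
Hsp90b1, chr10:86705632-86705662, minus strand: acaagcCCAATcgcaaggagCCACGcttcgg
Creld2, chr15:88819514-88819544, minus strand: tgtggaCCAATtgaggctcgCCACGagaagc
Pdia6, chr12:17266485-17266515, plus strand: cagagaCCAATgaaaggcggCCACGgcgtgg
Dnajc3, chr14:118937821-118937851, plus strand: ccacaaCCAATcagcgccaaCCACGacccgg
Calr, chr8:84847069-84847099, plus strand: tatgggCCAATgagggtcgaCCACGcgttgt
Canx, chr11:50325794-50325824, minus strand: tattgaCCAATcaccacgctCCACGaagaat
All 7 genes read higher in KO, with a median difference of 0.22, and the 5 ER members whose window lacks the element (Dnajb9, Pdia3, Pdia4, Herpud1 and Sdf2l1) had a median of 0.11 with 3 of 5 higher. Manf has no window in the table. The split was made after the values were seen and carries no test.

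For Hspa5 the whole stretch of 150 bases before the start is given, since BiP is the standard readout of the response. It lies at chr2:34771940-34772089 on the plus strand, and capitals mark the matched element.
Hspa5 upstream: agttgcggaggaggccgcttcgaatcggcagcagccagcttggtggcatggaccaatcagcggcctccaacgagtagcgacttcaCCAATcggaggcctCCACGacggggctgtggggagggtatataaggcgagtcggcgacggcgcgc
Beyond the members, 7 tested genes have a window with the element, and 6 of them read higher in KO (median 0.11). Of all named genes, 48.2% did. Ero1b, Syvn1 and Derl3 among the 7 are counted again with the further ER stress genes below. They include Ero1b, which oxidises the disulfide isomerases of secretory cells (0.33, SE 0.15, limma adjusted p = 0.52), Syvn1, an ER ubiquitin ligase (0.1), Derl3 of ER-associated degradation (0.11) and Alg12, a mannosyltransferase of N-glycan assembly (0.25). Pan2, a subunit of an mRNA deadenylase, gave the largest difference of the 7 (0.47, adjusted p = 0.31), and Adcy3 gave -0.03. A related element, ATTGG and CCACG with any 1 base between them, is in 0.0365% of windows. Of 7 other tested genes that hold it, 5 read higher in KO and 2 lower (median 0.08). Herpud1 is the only member that holds it.
Herpud1, chr8:94386371-94386393, plus strand: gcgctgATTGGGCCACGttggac

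The sensors and transcription factors among the members pointed the same way by their brightest probe sets, with all 4 measured genes above 0. Eif2ak3, which encodes the sensor PERK, is not a member and lay on the other side of 0. Its signals were 158.0, 157.3 and 149.0 in KO mice, against 206.5, 169.9 and 166.7 in WT mice, without overlap (difference -0.2, SE 0.12, limma adjusted p = 0.68). It is counted with the further ER stress genes below. Xbp1, the factor whose splicing by IRE1 activates ER chaperone genes, read 2379.8, 2380.2 and 1960.4 in KO mice, against 2196.1, 1776.4 and 1738.0 in WT mice. KO 3 lay below WT 1, and the groups overlapped (difference 0.24, SE 0.1, limma adjusted p = 0.49). Its other probe sets gave 0.12, 0.04 and -0.26, so the direction depends on the probe set, and their average gave 0.03. None reports splicing. Atf4 read 565.4, 566.2 and 646.9 in KO mice, against 590.9, 510.4 and 513.7 in WT mice (difference 0.14, SE 0.092, adjusted p = 0.72), with overlap, and the difference was 0.07 without KO 3. Atf6 gave 0.11 and Ern1, which encodes IRE1alpha, 0.13. ATF4, ATF6 and IRE1 are controlled mainly by translation, cleavage and phosphorylation, which arrays do not see.

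ATF4 targets were on the other side of 0, and again none passed. Asns, asparagine synthetase, read 664.5, 701.6 and 827.6 in KO mice, against 830.0, 859.9 and 762.6 in WT mice. KO 3 lay within the WT range, and KO 1 and KO 2 lay below it (difference -0.16, SE 0.093, limma adjusted p = 0.66). Chac1, which degrades glutathione and is induced through ATF4 and CHOP, read 59.0, 55.7 and 73.7 in KO mice, against 96.2, 64.2 and 82.2 in WT mice. KO 3 again overlapped the WT mice (difference -0.29, SE 0.18, adjusted p = 0.68). Ddit3, the gene for CHOP itself, read 279.5, 267.0 and 296.2 in KO mice, against 312.1, 275.1 and 267.8 in WT mice, a difference of -0.02 with a 95% interval from -0.24 to 0.2. Without KO 3, the mouse labelled cytoplasmic RNA, the median of the 3 genes was -0.25 in place of -0.16, and the differences were -0.25 for Asns and -0.05 for Ddit3. Without KO 1 the Asns difference was -0.1, and without WT 1 the Chac1 difference was -0.18. Trib3, below the filter, differed by -0.1.

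Windows with the core of the ATF4 element, searched as TGATGNAA on both strands, made up 3.97% of all windows and include those of Asns, Chac1 and Trib3. The first pair is shown with the match in capitals, as the members whose signals were lowest relative to WT.
Asns, chr6:7693219-7693238, minus strand: gccacaTGATGAAActtccc
Chac1, chr2:119351043-119351062, minus strand: caggagTGATGCAAcggcag
Herpud1 also holds a match, and Ddit3 has none in its window. Over 268 other tested genes with a match, the median difference was -0.01.

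Neither mitochondrial chaperonin passed, and their differences lay on either side of 0. Hspd1, encoding HSP60, read 1458.5, 1379.7 and 1615.9 in KO mice, against 1555.1, 1616.9 and 1356.0 in WT mice, a difference of -0.02 (SE 0.086, limma adjusted p = 0.97). Hspe1, encoding its lid HSP10, read 942.6, 1056.6 and 905.3 in KO mice, against 1018.6, 795.9 and 958.1 in WT mice, a difference of 0.07 (SE 0.099, adjusted p = 0.88). The groups overlapped for both genes, and the 95% intervals ran from -0.21 to 0.17 for Hspd1 and from -0.14 to 0.28 for Hspe1. Without KO 3 the differences were -0.08 for Hspd1 and 0.12 for Hspe1. A second Hspe1 probe set gave -0.1.

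These 2 genes lie head to head on opposite strands of chromosome 1 and share a promoter. The stretch below comes from the Hspe1 window, and its reverse complement is in 1 of the 2 Hspd1 windows. It is shown because it holds overlapping heat shock elements of 3 alternating GAA and TTC units, each 2 bases from the next, a pattern found in 0.603% of windows. Capitals mark the overlapping matches.
Hspe1 and Hspd1, chr1:55088029-55088106, plus strand: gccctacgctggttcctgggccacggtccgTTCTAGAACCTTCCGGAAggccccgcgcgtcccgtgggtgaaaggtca
Among the members, the windows of Hspd1, Hspe1 and Hsph1 hold this longer pattern, with differences of -0.02, 0.07 and 0.16. Of 53 other tested genes that hold it, 25 read higher in KO and 28 lower, with a median of 0.0.

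Per mouse, WT 1 read above the other WT mice for the chaperones among the members. The median deviation of the 13 ER chaperones from the WT mean was 0.14, 0.11 and 0.18 in KO mice, against 0.09, -0.01 and -0.08 in WT mice, without overlap. For the 15 cytosolic chaperones it was 0.13, 0.19 and 0.16 in KO mice, against 0.14, -0.08 and -0.1 in WT mice, so WT 1 lay among the KO mice. WT 1 was the highest WT mouse for 23 of the 37 members, and for 4094 of the 12323 named genes tested (33.2%). Without WT 1, the ER median was 0.23, the cytosolic median was 0.18 and 33 of 37 members read higher in KO. Leaving out 1 mouse at a time, the cytosolic median lay between 0.07 (without WT 3) and 0.18, and it was 0.16 without KO 1. The 37 further cytosolic chaperones described below, which are not members, differed in this respect. Their medians were 0.05, 0.11 and 0.05 in KO mice, against 0.01, -0.02 and -0.02 in WT mice, without overlap. WT 1 was the highest WT mouse for 15 of those 37.

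**Figure D3:**
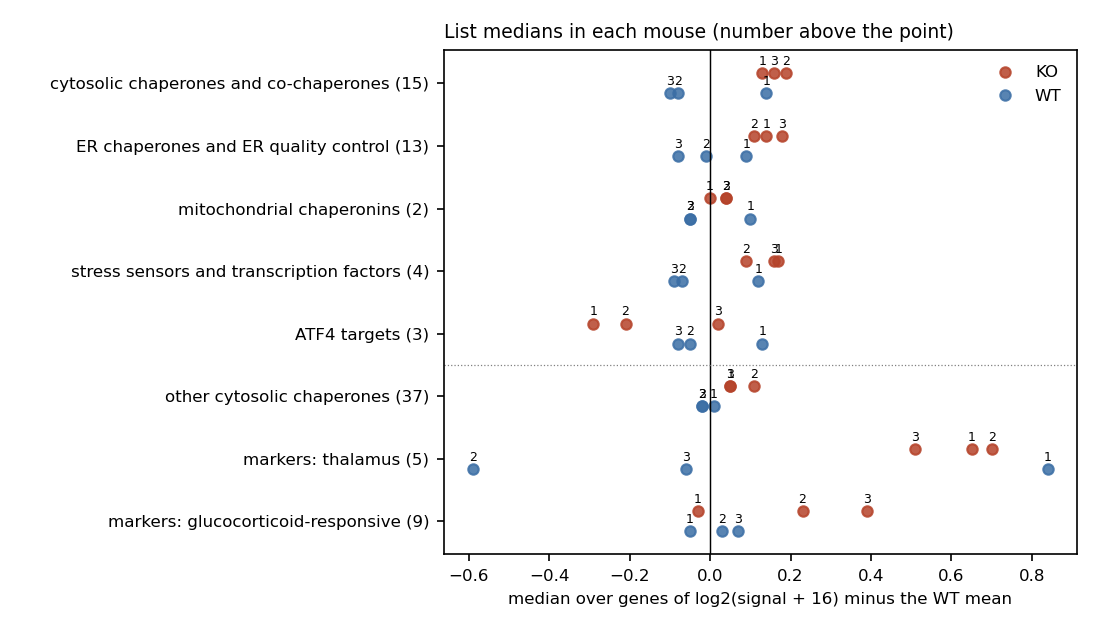
Median over the genes of each list of log2(signal + 16) minus the WT mean, in each mouse, with KO points above WT points, the mouse number above each point and the number of tested genes in brackets. WT 1 sits apart from WT 2 and WT 3 for the cytosolic chaperones (0.14) and for the thalamus markers (0.84).

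Marker lists differed between these mice too. Of 6 thalamus markers, 5 lay above the filter and all 5 read higher in KO, with medians per mouse of 0.65, 0.7 and 0.51 in KO mice and 0.84, -0.59 and -0.06 in WT mice, and summed signals of 1005 to 1207 in KO mice and 328 to 1405 in WT mice. WT 1 was the highest WT mouse for 4 of the 5, and none passed the threshold. Of 8 choroid plexus markers, 6 lay below the filter and Ttr passed: it read 3659.7, 2597.4 and 3061.7 in KO mice, against 1264.4, 1543.4 and 2192.9 in WT mice (difference 0.91, limma adjusted p = 0.035). Among 9 glucocorticoid-responsive genes, 7 read higher in KO and 0 passed, with medians of -0.03, 0.23 and 0.39 in KO mice and -0.05, 0.03 and 0.07 in WT mice. Klf9 (0.27), Fkbp5 (0.36) and Zbtb16 (0.59) had higher signals in KO without overlap, and Per1 had lower ones (-0.3). Across all probe sets, 14.4% showed no overlap in either direction and 6.52% were higher in KO without overlap. In limma, 5 of the 9 had an unadjusted p under 0.05, 4 of them higher in KO, where 9.17% of all probe sets had one. Vascular cell markers were measured for 8 genes and lower in KO for 6 of the 7 tested (median -0.07). Of 7 oligodendrocyte markers, 6 read lower in KO (median -0.17), with summed signals of 25705 to 27549 in KO mice and 26071 to 31288 in WT mice. Mag differed by -0.43 without overlap (limma adjusted p = 0.11), and WT 1 was the highest WT mouse for 6 of the 7. Cortical excitatory neuron markers had a median of -0.16 over 6 genes, summed signals of 345 to 798 in KO mice and 396 to 682 in WT mice, and WT 1 as the highest WT mouse for 5. Astrocyte markers had a median of 0.03 over 8 genes, with S100b at -0.37 (limma adjusted p = 0.11), and microglia markers a median of 0.05 over 8. In limma, 3 of the 8 microglia markers had an unadjusted p under 0.05 and 0 passed. Of these 3, C1qb (0.25) and C1qc (0.35) read higher in KO and Aif1 (-0.64) lower. Of 12 immediate early genes, 11 lay above the filter, and 7 of these read higher in KO. Their median difference was 0.11, the same as over the members. The groups did not overlap for 3 of them, all higher in KO, and 0 passed. Summed signals were 5870 to 6851 in KO mice and 5428 to 6149 in WT mice. The part of these lists in the chaperone differences was not tested.

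Further genes of the same pathways were read in the same way. In 4 lists of 124 chaperone and stress response genes that are not members, 114 were tested and 0 passed in limma, with 14 at an unadjusted p under 0.05, where 9.17% of all probe sets had one. Of all named genes, 48.2% read higher in KO. Of 37 further cytosolic chaperones, 27 read higher in KO (median 0.05), and the 4 with an unadjusted p under 0.05 were all higher. Cct4, a subunit of the cytosolic chaperonin that folds actin and tubulin, averaged 1506.8 ± 22.3 in KO mice and 1284.8 ± 101.5 in WT mice (SD, n = 3; difference 0.23, limma adjusted p = 0.33). Over its probe sets averaged, however, the Cct4 difference was 0.02. Dnajc5, the cysteine string protein that guards synaptic vesicle proteins, averaged 1091.4 ± 16.5 in KO mice and 957.2 ± 24.6 in WT mice (difference 0.19, adjusted p = 0.4), and over averaged probe sets the difference was 0.1.

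Of 37 further ER stress genes, 23 read higher in KO (median 0.04). Derl2, a channel component of ER-associated degradation, averaged 247.8 ± 22.5 in KO mice and 203.6 ± 16.2 in WT mice (SD, n = 3; difference 0.26, limma adjusted p = 0.48). Pdia5, a disulfide isomerase, averaged 52.4 ± 10.6 in KO mice and 77.7 ± 9.0 in WT mice (difference -0.46, adjusted p = 0.42), opposite in sign to Pdia3, Pdia4 and Pdia6. Both were without overlap.

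Of 28 further genes of ATF4 and the integrated stress response, 16 read higher in KO (median 0.03), and 3 of the 4 with an unadjusted p under 0.05 were lower. Atf5, a factor translated under stress like ATF4, averaged 63.3 ± 13.5 in KO mice and 94.8 ± 9.8 in WT mice (SD, n = 3; difference -0.49, limma adjusted p = 0.35). Stc2, a secreted glycoprotein induced by ER stress, averaged 23.3 ± 5.0 in KO mice and 47.1 ± 15.2 in WT mice (difference -0.66, adjusted p = 0.38), with KO signals near the filter value of 26.8. Of 12 mitochondrial chaperones and proteases, 10 read lower in KO, most by very little (median -0.03). Trap1, the mitochondrial HSP90, averaged 302.3 ± 14.2 in KO mice and 371.3 ± 25.0 in WT mice (difference -0.28, adjusted p = 0.34). Clpp, the matrix protease, averaged 383.8 ± 4.1 in KO mice and 444.0 ± 15.8 in WT mice (difference -0.2, adjusted p = 0.47). Neither overlapped between the groups.

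**Figure D4:**
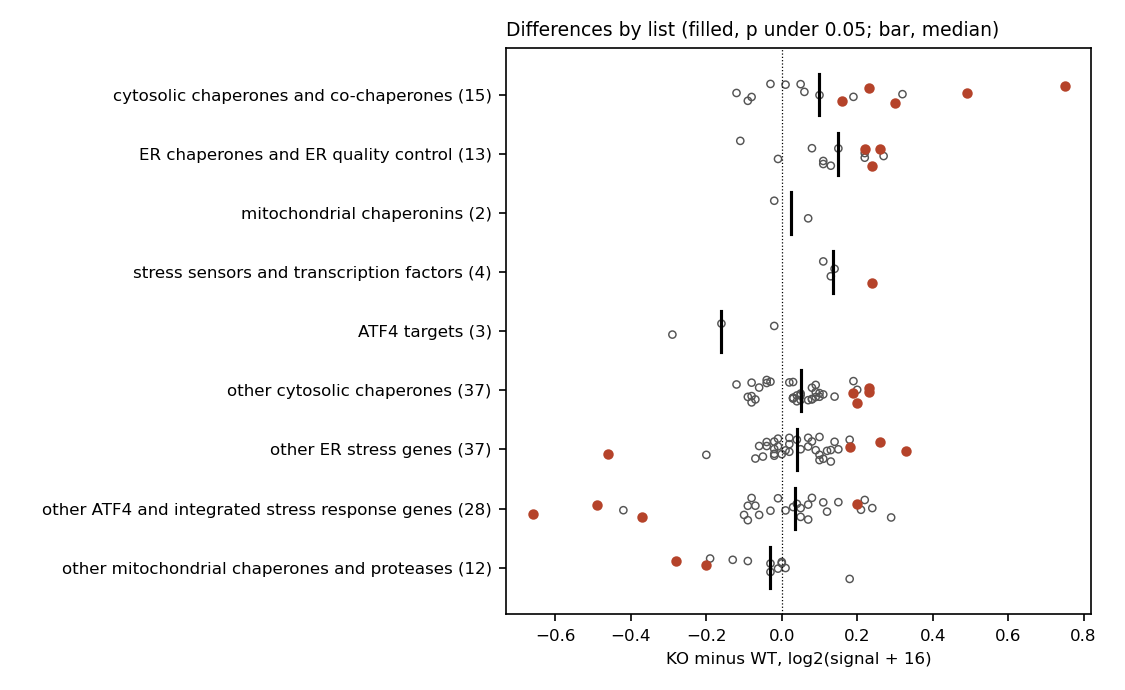
KO minus WT difference on log2(signal + 16) for each tested member, by role, and for 114 further genes in 4 lists; each point is a gene, filled where the unadjusted p is under 0.05, and bars mark list medians. Filled points of the chaperone lists lie right of 0 apart from Pdia5, while those of the mitochondrial list and 3 of 4 in the ATF4 list lie left of 0.

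Within a gene, probe sets gave a partial check. Of 25 members with more than 1 tested probe set, 14 read higher in KO by every one, among them Hspa1b, Hspb1, Hsph1, Dnaja1, Dnajb1, Dnajb5, Hsp90b1, Calr, Canx, Atf4 and Atf6, and Asns was lower by both of its probe sets. The other 10 had probe sets on both sides of 0: Hspa4, Hspa4l, Hspa12a, Hspb8, Hspa5, Dnajc3, Pdia3, Herpud1, Hspe1 and Xbp1. An exact permutation test of a single gene cannot go below p = 0.1 for 3 mice against 3.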

How the data were processed

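RNA from 6 striata was measured on Affymetrix mouse arrays. The deposited intensity values are MAS5 signals, per the submitters' processing notes; the sources used here name no version, target or settings. Controls (64 of 45101 probe sets) were left out. Names came from the platform annotation (932 probe sets with several symbols and 9160 not listed were not named), updated to GRCm38.p6. Signals were taken as log2 after adding 16, and the lowest 40 percent of probe sets by mean (signals up to about 26.8) were dropped. KO and WT were compared with limma 3.58.1 (R 4.3.3; lmFit, eBayes with trend), two-sided, adjusted by Benjamini-Hochberg over 27022 probe sets. The number of arrays limits precision.

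Members, lists and tests were chosen with earlier results of these data known. All members are accounted for. Signals are given for members with an adjusted or unadjusted p under 0.05, the 2 smallest p per role, and Hspa5, Hspa8, Hsp90aa1, Hspa1a, Hspa1b, Atf4, Xbp1, Ddit3, Hspd1 and Hspe1; further lists by their 2 smallest p. Other genes are named as further members of a list or were chosen after their values were seen. Promoter windows (RefSeq, 250 bases before to 50 after the start) were at hand for 34 members; motif searches were added after seeing the data. Same-numbered mice did not deviate together (correlations -0.009, -0.035 and 0.017), so no block was used. Alternatives were quantile normalization, median centring, an offset of 1 or 64, no filter or the 60th percentile, eBayes without trend or robust, the replicate block, averaged probe sets and leaving out each array.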

Additional observations from a re-analysis of the deposited data

How the results depend on the processing

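Over 16 alternatives 0 members passed in limma, with a smallest adjusted p of 0.06 (Hspa1b without WT 1), and 0 further stress genes passed. Members higher in KO numbered 24 of 36 with averaged probe sets to 33 of 37 without WT 1, and 31 of 37 with median centring, which moved the median of all probe sets to 0.039. All calls over the array numbered 127, and 52 with no filter, 25 without the intensity trend (3 of 5 for Ppargc1a) and 66 to 101 without 1 array (66 without KO 1, 74 without KO 2, 69 without WT 2). Of the calls, 37.8% were higher in KO, and 50.9% with median centring. The replicate block gave 100 calls and changed no call on a member. Without 1 array the ER median ran from 0.11 to 0.23, and the cytosolic median was 0.2 with averaged probe sets. Of 411 alternative values for 26 single genes, 11 turned sign, all within 0.06 of 0. Ddit3 gave 0.03 with median centring and 0.06 with averaged probe sets, and -0.06 to 0.05 without 1 array. Hspd1 gave 0.02 with median centring and -0.1 to 0.03 without 1 array. Hspe1 gave -0.01 with averaged probe sets and -0.03 to 0.14 without 1 array, and Hsp90aa1 -0.02 to 0.09 without 1 array. An offset of 64 in place of 16 gave -0.34 for Stc2, -0.32 for Atf5, -0.29 for Pdia5, -0.19 for Chac1 and 0.19 for Hspa1a. The causes were not tested. With 3 mice per group, signals close to the filter (Stc2, Hspa1a, Chac1) are the least certain.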

Other observations

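Subunits of the cytosolic chaperonin other than Cct4 lay between -0.04 (Cct7) and 0.09 (Cct5), and none passed in limma. Some single values of further stress genes, chosen after they were seen, had groups that did not overlap without passing the threshold. These were Stip1, which links HSP70 to HSP90 (0.2, limma adjusted p = 0.52), Psat1 of serine synthesis (0.2, adjusted p = 0.41) and the stress-induced regulator Nupr1 (-0.37, adjusted p = 0.49). Sesn2, below the filter, read 37.0, 35.4 and 15.8 in KO mice and 13.7, 12.4 and 10.2 in WT mice.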
